A study of Homo sapiens with 12 samples.

Results

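The 29 genes described here make cholesterol and fatty acids or control that synthesis. They were taken by gene symbol from the deposited tables, and all 29 were found among the 23497 genes there and passed the filter on low counts. The cells were WM1366, a human NRAS-mutant melanoma line. 3 daughter lines had become resistant to a BRAF inhibitor given with a MEK inhibitor and were grown in their drugs. Encorafenib plus binimetinib was used for the line called EB-resistant, vemurafenib plus cobimetinib for VC-resistant and dabrafenib plus trametinib for DT-resistant cells, while the sensitive parent line had DMSO. Each group has 3 libraries of polyadenylated RNA, taken 72 h after seeding in independent experiments and numbered 2, 5 and 6, and per-library values are given in that order. Each drug pair has 1 line, so adjusted p-values measure the spread between experiments. Resistance, the presence of drug and culture history cannot be told apart, nor can fewer cells with a transcript and less transcript per cell.

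Cholesterol is built from acetyl-CoA through mevalonate and farnesyl diphosphate (the mevalonate arm) and then through squalene and lanosterol to the finished sterol (the sterol arm). Fatty acids are built from acetyl-CoA by acetyl-CoA carboxylase and fatty acid synthase, and are then elongated and desaturated. The transcription factors SREBP-1 and SREBP-2 activate most of these genes when sterols are low; both are held in the endoplasmic reticulum by INSIG proteins when sterols are plentiful, and are freed by cleavage, so the mRNA of a factor does not measure its activity. The members were grouped as 7 genes of the mevalonate arm, 11 of the sterol arm, 4 regulators and 7 of the fatty acid arm.

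Library totals ran from 40491309 to 54495132 counts, and each of the 12 libraries had a library of its own group as its nearest neighbour. The melanocyte lineage factor MITF was present at 40.7 to 72.9 CPM (counts relative to TMM-scaled library totals), and the melanoma antigens CSPG4 and PRAME were present too. The pigment genes PMEL, TYRP1 and DCT were each under 1 CPM in every library. Of 11 listed lineage genes 7 were found in the deposited tables, and TYR, MLANA, SOX10 and S100B were not. Those found summed to 199 to 210 CPM in EB-resistant and 309 to 342 CPM in VC-resistant libraries. They summed to 170 to 186 CPM in DT-resistant and 127 to 140 CPM in sensitive libraries. CSPG4 was the largest part in each group, with means of 110, 214, 78.0 and 74.6 CPM in that order. Leukocyte genes summed to at most 1.33 CPM and endothelial genes to at most 7.28 CPM in any library.

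4 upstream sequences are shown as examples, from genes where the lines or the replicates differed or that carry a sterol response motif. Only plus-strand genes were used. The members that differed most are not among them. TM7SF2 had the largest change against sensitive cells, FADS2 the largest between resistant lines and STARD4 the largest gap between replicate 2 and the others. The sequences shown are on the plus strand of GRCh38.p14 and come from RefSeq promoter windows, ended before the gene start of the deposited tables. Capitals mark matches on either strand to TCACNCCAC (a sterol response element type), CACGTG (the E-box) and CCAAT (the NF-Y type). The SC5D window also holds a CCAAT match at -56 to -52 from the RefSeq start, beyond the end of its printed sequence.
SREBF2: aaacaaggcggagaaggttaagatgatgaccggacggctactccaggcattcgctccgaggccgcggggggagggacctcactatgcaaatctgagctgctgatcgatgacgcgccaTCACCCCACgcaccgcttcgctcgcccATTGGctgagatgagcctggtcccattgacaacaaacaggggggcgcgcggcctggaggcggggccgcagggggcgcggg
MSMO1: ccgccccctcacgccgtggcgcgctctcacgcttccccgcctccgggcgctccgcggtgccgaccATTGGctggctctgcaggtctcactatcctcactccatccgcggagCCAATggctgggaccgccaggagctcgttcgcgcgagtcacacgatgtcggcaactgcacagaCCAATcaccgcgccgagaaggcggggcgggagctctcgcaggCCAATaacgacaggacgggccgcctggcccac
SC5D: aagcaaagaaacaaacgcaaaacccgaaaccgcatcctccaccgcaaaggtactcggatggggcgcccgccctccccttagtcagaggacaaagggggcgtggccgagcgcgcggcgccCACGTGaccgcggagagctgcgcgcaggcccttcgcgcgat
SCD: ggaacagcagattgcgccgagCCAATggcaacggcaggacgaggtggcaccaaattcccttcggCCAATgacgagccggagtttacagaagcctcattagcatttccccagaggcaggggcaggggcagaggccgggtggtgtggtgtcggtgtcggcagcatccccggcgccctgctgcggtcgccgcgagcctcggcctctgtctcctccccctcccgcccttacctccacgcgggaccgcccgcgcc
The windows lie at chr22:41832855-41833078 for SREBF2, chr4:165327419-165327666 for MSMO1, chr11:121292521-121292680 for SC5D and chr10:100346983-100347232 for SCD. RefSeq windows were matched for 25 of the 29 members and for 27305 genes in all, and the 250 bases before the start were searched on both strands. CCAAT was found in 17 of the 25 member windows (68.0%) and in 33.0% of all windows. GGGCGG, the Sp1 type, was found in 23 member windows (92.0%) and in 42.3% of all windows. CACGTG was found in 2 member windows (8.0%, SC5D and INSIG1) and in 6.49% of all, and TCACNCCAC in 1 (4.0%) and in 0.875% of all. That 1 match, TCACCCCAC, stands at positions -133 to -125 of SREBF2 counted from the RefSeq start, which lies beyond the end of the sequence printed here. In these 25 windows no match to 1 motif overlapped a match to another. A match is a description of the sequence only.

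Replicate 2 stood apart from replicates 5 and 6 for these genes. In the VC-resistant line replicate 2 was the highest of 3 libraries for 26 of 29 members, against 38.2% of all genes tested, and in the DT-resistant line for 23 of 29, against 39.3% of all genes. In the EB-resistant line it was the highest for 23 of 29 members, against 33.5% of all genes. In sensitive cells it was the lowest for 21 of 29, against 37.5% of all genes. Replicate 2 exceeded the mean of replicates 5 and 6 by a median of 0.46 (log2 of CPM) over members in VC-resistant and 0.36 in DT-resistant cells, and of 0.17 in EB-resistant cells, while in sensitive cells the median difference was -0.15. The corresponding medians over all genes tested lay within 0.01 of 0. The gap was largest for STARD4 in both lines, at 1.63 in VC-resistant and 1.27 in DT-resistant cells. SCD had a gap of 1.56 in VC-resistant and 1.13 in DT-resistant cells, FADS2 one of 1.35 and 1.02, and INSIG1 one of 0.89 and 1.16. Replicate 2 had the fewest counts of the VC-resistant libraries and the most of the DT-resistant ones. What set replicate 2 apart was not tested, and counts are given below with and without it. Leaving it out was chosen after these gaps were seen, and removes the library that widened the spread of these genes. Calls and p-values without it are therefore a description and not separate support.

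**Figure D1:**
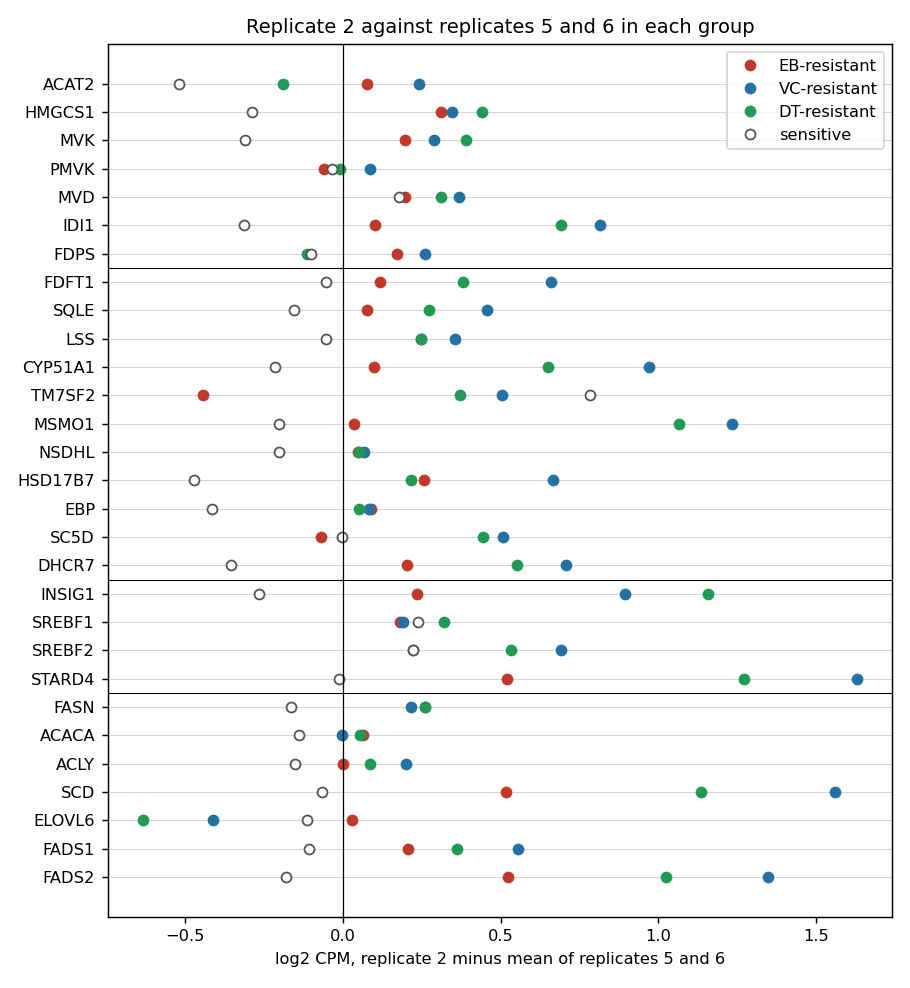
Difference of replicate 2 from the mean of replicates 5 and 6 (log2 of CPM, horizontal axis) for each of the 29 genes (rows, grouped by arm), with 1 point per line. VC-resistant and DT-resistant points lie mostly right of 0, reaching 1.63 for STARD4, while most sensitive points lie left of 0; ELOVL6 runs the other way in both resistant lines.

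Against sensitive cells, the EB-resistant line had more of 16 of these 29 transcripts, and the VC-resistant and DT-resistant lines each had less of 12. A gene is said to have risen or fallen when its Benjamini-Hochberg adjusted p from edgeR's quasi-likelihood test was under 0.05. In EB-resistant cells 16 of 29 members rose and 2 fell, against 28.5% of all 17114 genes tested that rose and 27.6% that fell. In VC-resistant cells 2 rose and 12 fell, against 27.6% and 27.4% of all genes. In DT-resistant cells 2 rose and 12 fell, against 29.8% and 29.3% of all genes. The median log2 fold change (log2FC) over members was 0.41 for the EB-resistant, -0.18 for the VC-resistant and -0.19 for the DT-resistant line, where the median over all genes lay within 0.01 of 0. Leaving out 1 library at a time, the VC-resistant median ran from -0.26 to -0.09 and the DT-resistant one from -0.32 to -0.08, and without replicate 2 of all 4 groups they were -0.29 and -0.35. These 3 comparisons share the sensitive libraries. Without replicate 2 in all 4 groups, 16 members rose and 5 fell in EB-resistant cells, and 2 rose and 16 fell in each of the VC-resistant and DT-resistant lines, where between 27.8% and 30.0% of all genes were called in each direction. The VC-resistant count that fell also depended on single libraries: it was 6 without sensitive replicate 6, 6 without VC-resistant replicate 5 and 7 without VC-resistant replicate 6. The DT-resistant count that rose was 1 without sensitive replicate 5 or 6 or DT-resistant replicate 2, and 4 without DT-resistant replicate 6. The EB-resistant count that fell was 1 without sensitive replicate 6. Out of 29, the VC-resistant counts of 6 and 7 were below the 27.4% of all genes that fell with all 12 libraries. The DT-resistant counts of 1 and 4 were below the 29.8% of all genes that rose. The EB-resistant count of 1 was below the 27.6% that fell. Shares of all genes without 1 library are not given here.

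The EB-resistant line had the highest mean of the 4 groups for 19 of 29 members. The lowest mean was that of the DT-resistant line for 11, sensitive cells for 9, VC-resistant for 6 and EB-resistant cells for 3. The order of the means was not counted over all genes. Added over the 29 genes, EB-resistant libraries held 4468, 3961 and 3639 CPM, VC-resistant libraries 3143, 2249.5 and 2158 CPM, and DT-resistant libraries 2649, 2098 and 1920.1 CPM, against 3066, 3317 and 3277 CPM in sensitive libraries. The EB-resistant sums all lay above the sensitive ones and the DT-resistant sums all lay below them, while VC-resistant replicate 2 overlapped the sensitive range. The fatty acid arm made up the largest part of each sum. Per kilobase of gene length, SCD had the highest level of the 29 genes in EB-resistant and sensitive cells (both 144 CPM per kb) and ACLY in VC-resistant (73.0 CPM per kb) and DT-resistant cells (71.2 CPM per kb). The lowest levels per kilobase were those of CYP51A1 in EB-resistant (0.813 CPM per kb), FADS2 in VC-resistant (0.935 CPM per kb) and DT-resistant (0.759 CPM per kb) and TM7SF2 in sensitive cells (0.650 CPM per kb).

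**Figure D2:**
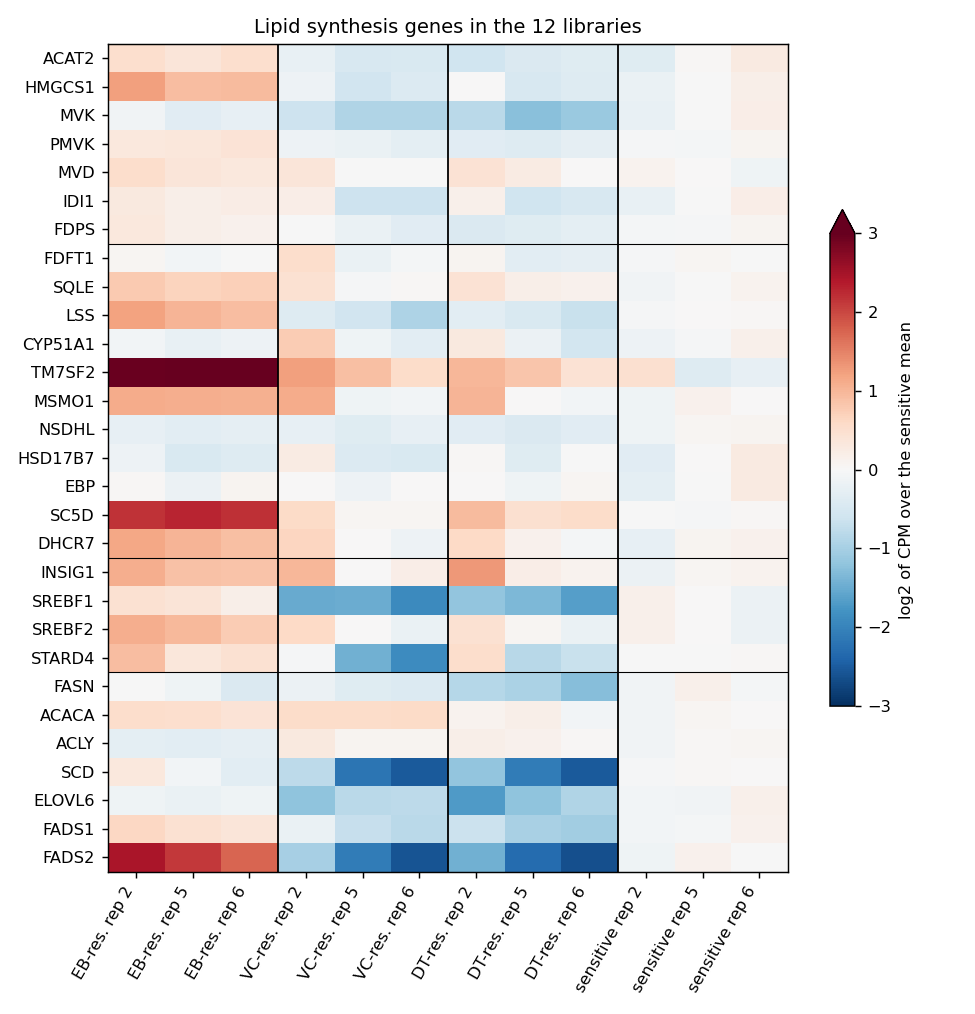
Level of each of the 29 genes (rows) in each of the 12 libraries (columns), as log2 of CPM over the sensitive mean. Red is above and blue below that mean, and TM7SF2 in EB-resistant replicates 5 and 6 passes the top of the scale. EB-resistant libraries are red for most rows, SREBF1, SCD, ELOVL6 and FADS2 are blue in all 6 VC-resistant and DT-resistant libraries, and replicate 2 of these lines is redder than replicates 5 and 6 in many rows.

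**Figure D3:**
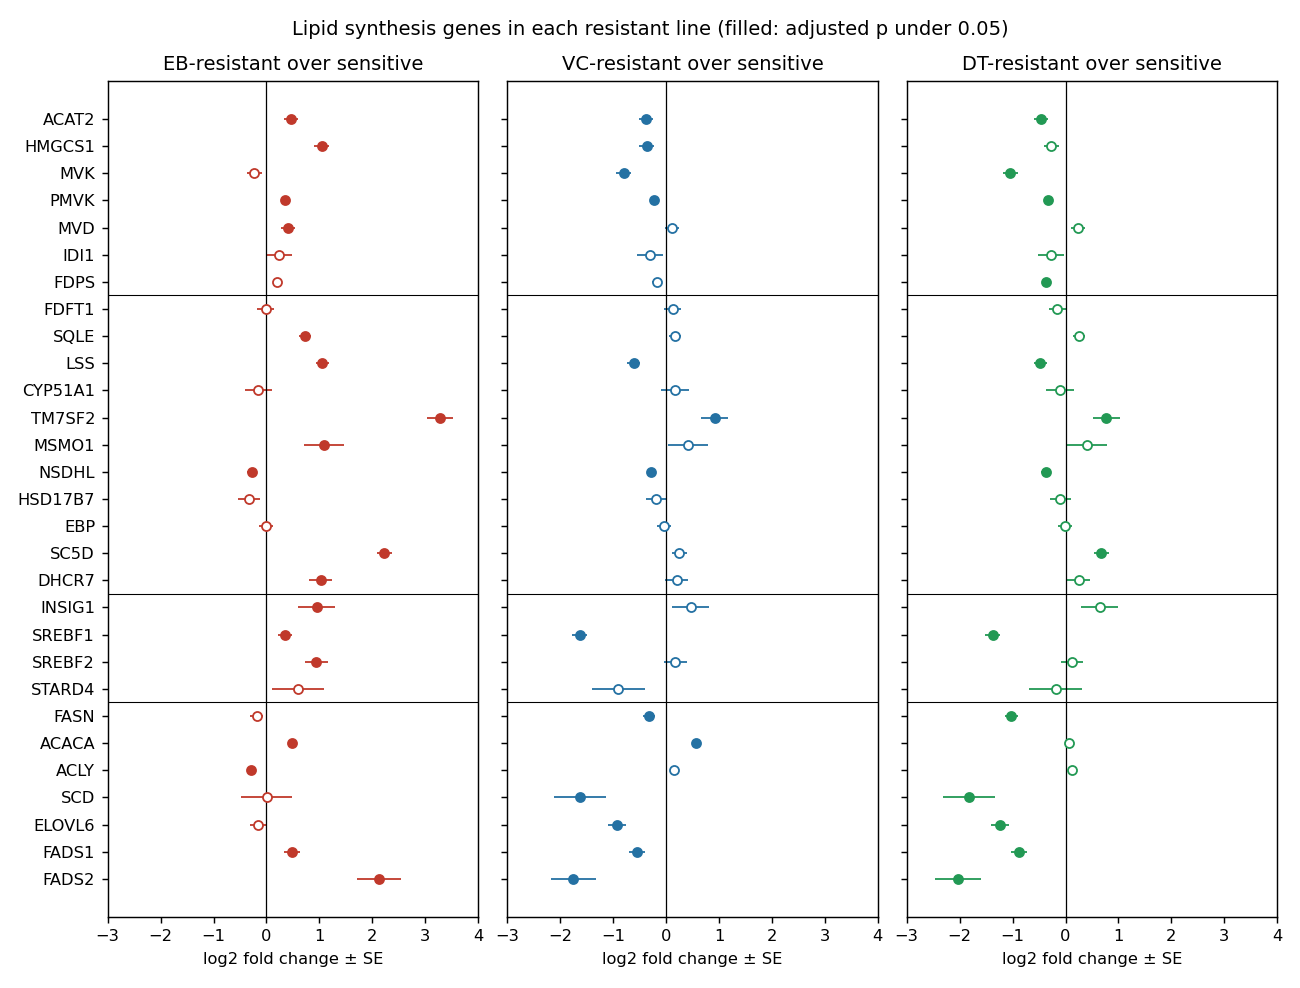
Log2 fold change ± SE of each gene in EB-resistant, VC-resistant and DT-resistant cells over the same 3 sensitive libraries, with filled points for an adjusted p under 0.05 in edgeR's quasi-likelihood test. In the EB-resistant panel 16 filled points lie right of 0 and 2 left; in each of the others 2 lie right and 12 left.

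Among the regulators, the mRNAs of both SREBP factors rose in EB-resistant cells, and that of SREBP-1 alone was called in the other lines, where it fell. SREBF2 (chr22:41833079-41907307, hg38) encodes SREBP-2, which drives mainly cholesterol genes. It stood at 379, 350.5 and 302 CPM in EB-resistant, 270.5, 180.2 and 156 CPM in VC-resistant and 245, 186 and 155 CPM in DT-resistant libraries, against 198, 181 and 159 CPM in sensitive libraries. All EB-resistant libraries lay above all others, while both other resistant lines overlapped sensitive, with replicate 2 above its range in each. Its log2FC was 0.94 ± 0.21 (SE) in EB-resistant cells (adjusted p = 0.00335, edgeR), and it was not called in VC-resistant (0.17) or DT-resistant cells (0.12).

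SREBF1 (chr17:17810399-17837002) encodes SREBP-1, which drives mainly fatty acid genes. Its levels were 158, 150.3 and 129 CPM in EB-resistant, 40.0, 40.7 and 30.2 CPM in VC-resistant and 50.5, 44.8 and 36.5 CPM in DT-resistant libraries, against 127, 115 and 101 CPM in sensitive libraries. Every VC-resistant and DT-resistant library was below every sensitive one, with no overlap, while the EB-resistant libraries all lay above the sensitive ones by a narrow margin. SREBF1 fell in VC-resistant cells (log2FC -1.63 ± 0.14 SE, adjusted p = 5.87e-07, edgeR) and in DT-resistant cells (-1.38 ± 0.14, adjusted p = 1.83e-06). The rise in EB-resistant cells was smaller (0.35 ± 0.14, adjusted p = 0.0401), and the call was lost without sensitive replicate 5 or 6, EB-resistant replicate 2 or 5 or DT-resistant replicate 5, when the log2FC was 0.28 to 0.36 and the adjusted p 0.0526 to 0.133. It was also lost without replicate 2 (0.37, adjusted p = 0.0741). RAI1, which overlaps SREBF1 on the opposite strand, was not called in EB-resistant cells (log2FC -0.29) and fell in the VC-resistant (-0.78) and DT-resistant lines (-0.60).

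INSIG1, which retains the SREBP factors in the endoplasmic reticulum and is itself a target of theirs, stood at 126, 108 and 106 CPM in EB-resistant, 117, 59.1 and 67.5 CPM in VC-resistant and 145.5, 67.5 and 63.0 CPM in DT-resistant libraries, against 51.9, 61.3 and 63.4 CPM in sensitive libraries. The EB-resistant libraries did not overlap the sensitive ones, and in the other lines replicate 2 stood far above replicates 5 and 6. INSIG1 rose in EB-resistant cells (log2FC 0.95 ± 0.35 SE, adjusted p = 0.0429, edgeR). That call was lost without any 1 of the 6 libraries compared or without VC-resistant replicate 6. The log2FC was then 0.86 to 1.02 and the adjusted p 0.0588 to 0.128. Without replicate 2 in all groups the log2FC was 0.78 (adjusted p = 1.57e-08, edgeR). That p is not separate support, since replicate 2 was left out after its gap was seen.

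STARD4, a carrier of cholesterol between membranes, showed the largest spread between experiments. Its levels were 60.7, 40.8 and 43.9 CPM in EB-resistant, 31.4, 11.8 and 8.67 CPM in VC-resistant and 46.2, 17.98 and 20.3 CPM in DT-resistant libraries, against 32.0, 31.8 and 32.8 CPM in sensitive libraries. Replicates 5 and 6 of the VC-resistant and DT-resistant lines lay below sensitive, but replicate 2 lay close to sensitive in the VC-resistant line and above it in the DT-resistant line. No comparison with sensitive was called with all 12 libraries (log2FC 0.59 for the EB-resistant, -0.91 for the VC-resistant and -0.19 for the DT-resistant line). Without replicate 2 the values were 0.40 (adjusted p = 0.00462), -1.66 (7.63e-10) and -0.75 (1.5e-05), and all 3 were called by edgeR. That fit was chosen after the replicate 2 gap was seen, so these calls are not separate support.

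In the mevalonate arm, 4 of 7 genes rose in EB-resistant cells, where 28.5% of all genes rose, and 4 of 7 fell in each of the VC-resistant and DT-resistant lines, where 27.4% and 29.3% of all genes fell. HMGCS1, the cytosolic HMG-CoA synthase, averaged 54.0 ± 6.95 CPM in EB-resistant, 20.3 ± 3.13 CPM in VC-resistant and 21.7 ± 4.05 CPM in DT-resistant cells, against 26.2 ± 3.49 CPM in sensitive cells (SD, n = 3 each). It had the largest EB-resistant change of the arm (log2FC 1.04 ± 0.15 SE, adjusted p = 2.82e-05, edgeR). In VC-resistant cells its log2FC was -0.37 (adjusted p = 0.0488), which no longer passed without sensitive replicate 5 or 6, any EB-resistant library, VC-resistant replicate 5 or 6 or DT-resistant replicate 6, at -0.25 to -0.36.

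PMVK, phosphomevalonate kinase, and ACAT2, the cytosolic acetoacetyl-CoA thiolase, rose in EB-resistant cells by a log2FC of 0.35 ± 0.08 and 0.46 ± 0.13 (adjusted p = 0.00159 and 0.00665, edgeR), and fell in the other lines. PMVK averaged 29.3 ± 0.936 CPM in EB-resistant, 19.7 ± 0.974 CPM in VC-resistant and 18.3 ± 0.704 CPM in DT-resistant cells, against 23.0 ± 1.05 CPM in sensitive cells (SD, n = 3 each). In VC-resistant cells the log2FC was -0.22 ± 0.08 for PMVK and -0.38 ± 0.13 for ACAT2 (adjusted p = 0.0322 and 0.0221), and each call ended when sensitive or VC-resistant replicate 5 or 6 was left out, at -0.17 to -0.24 for PMVK and -0.21 to -0.35 for ACAT2. The PMVK call was also lost without any 1 EB-resistant library (-0.21). In DT-resistant cells PMVK fell by 0.33 and ACAT2 by 0.46 on the log2 scale (adjusted p = 0.00307 and 0.00626). ACAT2 overlaps TCP1 and SOD2 on the opposite strand, which hold 680.3% and 333% as many counts. In EB-, VC- and DT-resistant cells the log2FC was -0.35, -0.38 and -0.38 for TCP1 and 1.54, 1.01 and 1.76 for SOD2. The share of ACAT2 reads that belong to them was not tested.

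MVK, mevalonate kinase, stood at 15.1 ± 1.30 CPM in EB-resistant, 10.2 ± 1.22 CPM in VC-resistant and 8.58 ± 1.45 CPM in DT-resistant cells, against 17.7 ± 2.55 CPM in sensitive cells (SD, n = 3 each). It fell in VC-resistant cells (log2FC -0.80 ± 0.14 SE, adjusted p = 0.000226, edgeR) and in DT-resistant cells (-1.05 ± 0.14, adjusted p = 1.75e-05), and was not called in EB-resistant cells (-0.23). MMAB, which overlaps MVK on the opposite strand and acts in vitamin B12 metabolism, fell by 0.25, 0.72 and 0.93 on the log2 scale in the EB-, VC- and DT-resistant lines. FDPS, farnesyl diphosphate synthase, fell in DT-resistant cells (log2FC -0.36 ± 0.09, adjusted p = 0.00197). MVD, which makes isopentenyl diphosphate, rose in EB-resistant cells (log2FC 0.41, adjusted p = 0.0138); the call was lost without sensitive replicate 6 or EB-resistant replicate 2 (0.36 and 0.35). IDI1, which isomerises that product, was not called in any of the 3 lines.

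In the sterol arm, 6 of 11 genes rose and 1 fell in EB-resistant cells; 1 rose and 2 fell in VC-resistant cells; and 2 rose and 2 fell in DT-resistant cells. Of all genes, 28.5% rose and 27.6% fell in EB-resistant, 27.6% rose and 27.4% fell in VC-resistant, and 29.8% rose and 29.3% fell in DT-resistant cells. SC5D (chr11:121292681-121313410), the sterol C5-desaturase of the last steps, changed most firmly. It stood at 114, 123 and 115 CPM in EB-resistant, 37.3, 26.3 and 26.3 CPM in VC-resistant and 48.9, 35.2 and 36.6 CPM in DT-resistant libraries, against 25.1, 24.5 and 25.8 CPM in sensitive libraries. EB-resistant libraries were far above all others, every DT-resistant library was above every sensitive one, and VC-resistant replicates 5 and 6 were within 2 CPM of the sensitive values. SC5D rose 4.67-fold in EB-resistant cells (log2FC 2.22 ± 0.14 SE, adjusted p = 1.24e-08, edgeR) and 1.60-fold in DT-resistant cells (0.68 ± 0.14, adjusted p = 0.000764).

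TM7SF2 (chr11:65111845-65116384), a sterol C14-reductase, had the largest fold change of the 29 genes against sensitive cells. Its levels were 17.2, 25.9 and 21.2 CPM in EB-resistant, 5.22, 4.16 and 3.23 CPM in VC-resistant and 4.43, 3.92 and 2.97 CPM in DT-resistant libraries, against 3.09, 1.69 and 1.87 CPM in sensitive libraries. EB-resistant libraries did not overlap any other group, VC-resistant libraries lay above sensitive ones by a narrow margin, and DT-resistant replicate 6 was below sensitive replicate 2. TM7SF2 rose 9.68-fold in EB-resistant cells (log2FC 3.28 ± 0.25 SE, adjusted p = 7.88e-08, edgeR), in VC-resistant cells (0.92 ± 0.25, adjusted p = 0.00674) and in DT-resistant cells (0.77 ± 0.25, adjusted p = 0.017). The DT-resistant call was lost without sensitive replicate 5 (0.61), sensitive replicate 6 (0.67) or DT-resistant replicate 2 (0.65). VPS51 overlaps TM7SF2 on the same strand with 1037% as many counts. Its own log2FC was 0.46 in EB-resistant, 0.16 in VC-resistant (not called) and 0.22 in DT-resistant cells, and the share of TM7SF2 reads that belong to it was not tested.

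LSS, lanosterol synthase, averaged 91.3 ± 9.54 CPM in EB-resistant, 28.8 ± 5.24 CPM in VC-resistant and 31.6 ± 3.85 CPM in DT-resistant cells, against 43.9 ± 1.03 CPM in sensitive cells (SD, n = 3 each). It rose in EB-resistant cells (log2FC 1.06 ± 0.12 SE, adjusted p = 3.32e-06, edgeR) and fell in VC-resistant (-0.61 ± 0.12, adjusted p = 0.000704) and DT-resistant cells (-0.48 ± 0.12, adjusted p = 0.00381). SQLE, the squalene epoxidase that acts just before LSS, rose in EB-resistant cells (log2FC 0.73), and so did DHCR7 (1.03), the reductase of the final steps. Neither was called in the other lines. NSDHL, a C4-demethylation enzyme, stood at 28.2, 26.9 and 27.6 CPM in EB-resistant, 28.3, 26.2 and 28.0 CPM in VC-resistant and 26.4, 24.6 and 26.3 CPM in DT-resistant libraries, against 30.4, 34.7 and 35.2 CPM in sensitive libraries. All 9 resistant libraries were below all sensitive ones. NSDHL fell in all 3 lines, by 0.28, 0.28 and 0.38 on the log2 scale (adjusted p = 0.00889, 0.00838 and 0.00102), and the EB-resistant and VC-resistant calls were lost without sensitive replicate 6 (-0.23 in both) and the VC-resistant one also without VC-resistant replicate 5 (-0.24).

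MSMO1, the C4-methylsterol oxidase, was among the genes raised in replicate 2. It stood at 88.2, 87.0 and 85.3 CPM in EB-resistant, 89.3, 37.3 and 38.7 CPM in VC-resistant and 83.5, 41.1 and 38.7 CPM in DT-resistant libraries, against 37.2, 44.7 and 41.1 CPM in sensitive libraries. The EB-resistant libraries did not overlap sensitive, and replicate 2 of each of the other lines was at the EB-resistant level while replicates 5 and 6 were at the sensitive level. Its log2FC in EB-resistant cells was 1.08 ± 0.38 (adjusted p = 0.0355, edgeR); the call was lost without any 1 of the 6 libraries compared, at 1.01 to 1.15 with an adjusted p of 0.0678 to 0.107. Without replicate 2 in all groups the log2FC was 1.01 with an adjusted p of 3.14e-10 (edgeR). That p is not separate support, since replicate 2 was left out after its gap was seen. FDFT1, the squalene synthase, and CYP51A1, HSD17B7 and EBP, which act between lanosterol and the last desaturation, were not called in any line, with log2FC between -0.33 and 0.17. Copies of HSD17B7 could share its reads, since the pseudogene HSD17B7P2 held 10.4% as many counts.

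**Figure D4:**
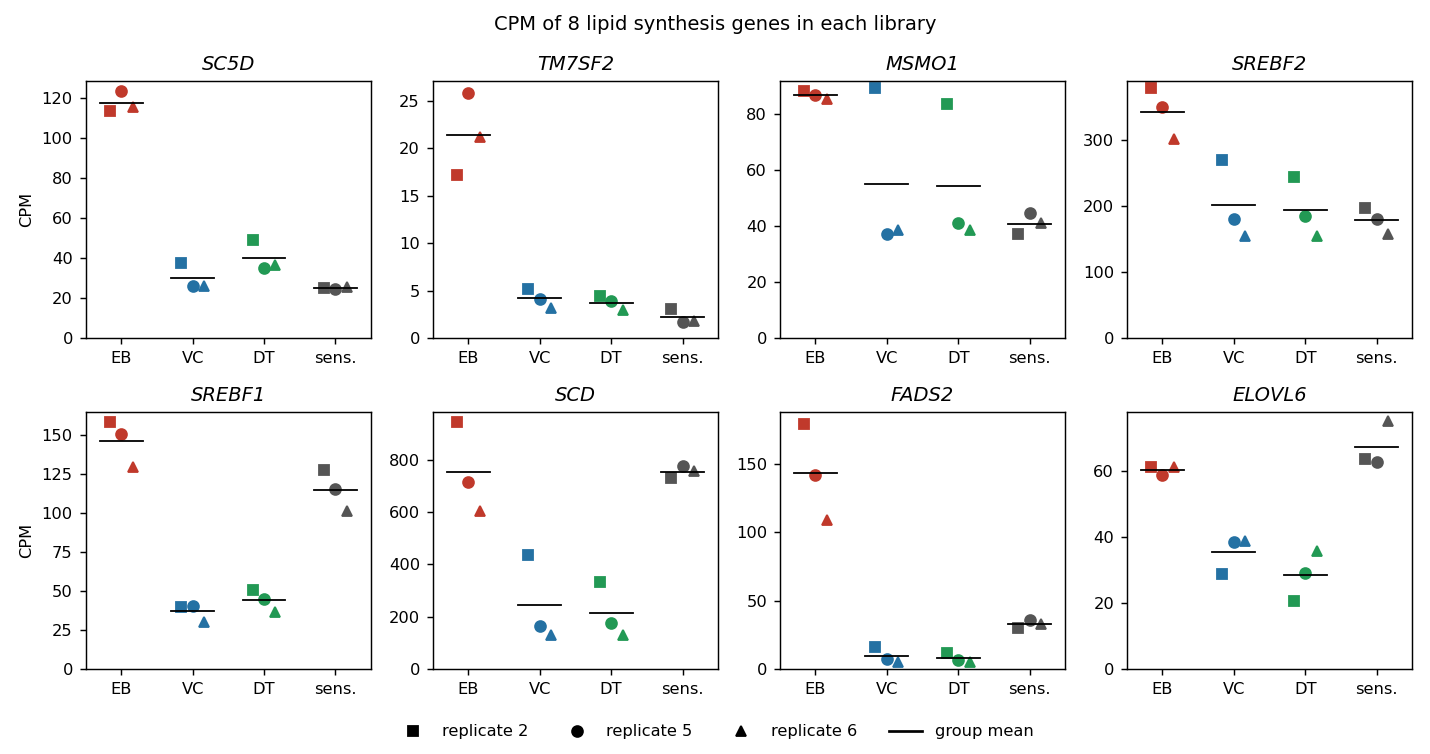
CPM of 8 genes in each library (linear axis from 0), with EB-resistant, VC-resistant, DT-resistant and sensitive (sens.) groups from left to right, 1 point per library, a symbol per replicate number and a line at the group mean. SC5D and TM7SF2 are high in EB-resistant libraries alone, SREBF1, SCD, FADS2 and ELOVL6 are lower in all VC-resistant and DT-resistant libraries than in any sensitive one, and MSMO1 and SREBF2 have high squares, replicate 2, in the VC-resistant and DT-resistant lines.

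In the fatty acid arm, 3 of 7 genes rose and 1 fell in EB-resistant cells, 1 rose and 5 fell in VC-resistant cells, and 5 fell and 2 were not called in DT-resistant cells, where between 27.4% and 29.8% of all genes were called in each direction. FADS2 (chr11:61792980-61867354), the delta-6 desaturase of polyunsaturated fatty acids, moved in opposite directions. It stood at 179, 142 and 109 CPM in EB-resistant, 16.5, 7.68 and 5.43 CPM in VC-resistant and 12.1, 6.68 and 5.25 CPM in DT-resistant libraries, against 30.1, 35.6 and 32.7 CPM in sensitive libraries. The EB-resistant libraries were above and all 6 VC-resistant and DT-resistant libraries below every sensitive one. FADS2 rose 4.37-fold in EB-resistant cells (log2FC 2.13 ± 0.41 SE, adjusted p = 0.00158, edgeR) and fell in VC-resistant (-1.75 ± 0.42, adjusted p = 0.00627) and DT-resistant cells (-2.03 ± 0.43, adjusted p = 0.00264). Without replicate 2 these were 1.88, -2.39 and -2.51.

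FADS1 (chr11:61799627-61829318), the delta-5 desaturase, is the neighbour of FADS2 and overlaps it on the opposite strand. It averaged 306 ± 27.1 CPM in EB-resistant, 149.6 ± 35.4 CPM in VC-resistant and 119 ± 17.9 CPM in DT-resistant cells, against 219 ± 16.3 CPM in sensitive cells (SD, n = 3 each). It rose in EB-resistant cells (log2FC 0.49 ± 0.15 SE, adjusted p = 0.0129, edgeR), a call lost without sensitive replicate 2 (0.45, adjusted p = 0.0535), and fell in VC-resistant (-0.55 ± 0.15, adjusted p = 0.00695) and DT-resistant cells (-0.88 ± 0.15, adjusted p = 0.000231). FEN1, a DNA repair nuclease gene that overlaps FADS2 on the same strand, had a log2FC of -0.26 in EB-resistant (not called), -0.74 in VC-resistant and -0.94 in DT-resistant cells (both called).

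SCD (chr10:100347233-100364826), the stearoyl-CoA desaturase that makes oleate, was not called in EB-resistant cells (log2FC 0.00) and fell in the other lines. It stood at 942, 716 and 605 CPM in EB-resistant, 436, 166 and 132 CPM in VC-resistant and 333, 175 and 132 CPM in DT-resistant libraries, against 730.3, 774 and 757 CPM in sensitive libraries. The EB-resistant libraries spanned the sensitive range, and all VC-resistant and DT-resistant libraries were below it, with replicate 2 the highest of each. The log2FC was -1.62 ± 0.49 (SE) in VC-resistant cells (adjusted p = 0.0192, edgeR) and -1.82 ± 0.49 in DT-resistant cells (adjusted p = 0.0106). The VC-resistant call was lost without sensitive replicate 6 (-1.60), VC-resistant replicate 5 (-1.39) or VC-resistant replicate 6 (-1.31). Without replicate 2 the values were -2.36 and -2.31.

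ELOVL6, the elongase of saturated chains, had levels of 61.3, 59.0 and 61.4 CPM in EB-resistant, 29.02, 38.5 and 38.8 CPM in VC-resistant and 20.8, 29.1 and 35.8 CPM in DT-resistant libraries, against 63.7, 62.9 and 75.3 CPM in sensitive libraries. VC-resistant and DT-resistant libraries were all below sensitive, and here replicate 2 was the lowest of each line. ELOVL6 fell in VC-resistant (log2FC -0.92 ± 0.16 SE, adjusted p = 0.000353, edgeR) and DT-resistant cells (-1.24 ± 0.16, adjusted p = 2.96e-05).

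The 3 enzymes that lead from citrate to palmitate did not move together. ACLY, which cleaves citrate to acetyl-CoA, stood at 281, 277 and 285 CPM in EB-resistant, 416, 362 and 363 CPM in VC-resistant and 386, 374 and 353 CPM in DT-resistant libraries, against 319, 353 and 355 CPM in sensitive libraries. EB-resistant libraries were below all others, and ACLY fell there (log2FC -0.28 ± 0.07 SE, adjusted p = 0.0033, edgeR). ACACA, acetyl-CoA carboxylase 1, stood at 198, 195 and 183 CPM in EB-resistant, 202, 199.9 and 205 CPM in VC-resistant and 146, 154 and 129 CPM in DT-resistant libraries, against 128, 144 and 139 CPM in sensitive libraries. EB-resistant and VC-resistant libraries were above all sensitive ones, and DT-resistant libraries overlapped them. ACACA rose in EB-resistant (0.49 ± 0.07, adjusted p = 3.94e-05) and VC-resistant cells (0.56 ± 0.07, adjusted p = 1.28e-05). FASN, fatty acid synthase, averaged 417 ± 58.6 CPM in EB-resistant, 379.8 ± 34.3 CPM in VC-resistant and 234 ± 34.5 CPM in DT-resistant cells, against 475 ± 48.1 CPM in sensitive cells (SD, n = 3 each). It fell in DT-resistant cells (-1.02 ± 0.12, adjusted p = 7.83e-06) and less in VC-resistant cells (-0.32, adjusted p = 0.0372). The VC-resistant call was lost without sensitive replicate 5 or 6, EB-resistant replicate 5 or VC-resistant replicate 5 or 6, when the log2FC was -0.23 to -0.33.

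Set directly against the other resistant lines, the EB-resistant line had more of most members. Against VC-resistant cells 17 of 29 members rose and 1 fell, where 29.6% of all genes rose and 28.8% fell, with a median log2FC of 0.57. Against DT-resistant cells 18 rose and 1 fell, where 28.4% of all genes rose and 28.8% fell, with a median of 0.78. These comparisons share the EB-resistant libraries. By adjusted p the leading genes were LSS, SC5D and SREBF1, with log2FC values of 1.66 ± 0.13, 1.97 ± 0.14 and 1.98 ± 0.14 over VC-resistant cells (SE; adjusted p = 5.06e-08, 5.33e-08 and 7.97e-08, edgeR). Over DT-resistant cells they had 1.53 ± 0.12, 1.55 ± 0.14 and 1.73 ± 0.14 (adjusted p = 1.19e-07, 4.89e-07 and 2.78e-07). ACLY was the member that fell, by 0.44 against VC-resistant and 0.40 against DT-resistant cells on the log2 scale (adjusted p = 9.77e-05 and 0.000228). FADS2 differed most in size, 14.7-fold over VC-resistant and 17.9-fold over DT-resistant cells. STARD4 and SCD, higher in EB-resistant than in VC-resistant cells by 1.5 and 1.62 (log2FC), lost the call without VC-resistant replicate 5 (1.27 and 1.39) or 6 (1.16 and 1.31), and STARD4 also without EB-resistant replicate 2 (1.30) or 6 (1.56). Without replicate 2, 21 members rose and 1 fell against VC-resistant cells, with a median of 0.76. Of all genes, 30.5% rose and 29.8% fell there. Against DT-resistant cells 23 members rose and 1 fell, where 28.4% of all genes rose and 29.1% fell.

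VC-resistant and DT-resistant cells differed at few genes in all, and at few members. Of 29, 2 rose and 1 fell, where 7.08% of all genes rose and 8.71% fell, so few calls were not particular to the members. FASN, which builds the chain, was higher in VC-resistant cells (log2FC 0.70 ± 0.12 SE, adjusted p = 0.00135, edgeR). So was ACACA, the enzyme of the first committed step (0.50 ± 0.07, adjusted p = 0.000241). SC5D was lower (-0.43 ± 0.14, adjusted p = 0.0496), a call lost without any 1 library except VC-resistant replicate 2 and DT-resistant replicate 5, at -0.26 to -0.49. The other 26 members had log2FC between -0.72 and 0.33 and were not called, which does not show that they were equal. Same-numbered libraries of these lines deviated together, and with the replicate number as a block in a model of these 6 libraries alone, 5 members rose and 3 fell, where 13.4% of all genes rose and 14.8% fell. FASN (0.71), ACACA (0.51), ELOVL6 (0.33), FADS1 (0.32) and FDFT1 (0.26) were then higher in VC-resistant cells, and STARD4 (-0.78), SC5D (-0.43) and SREBF1 (-0.25) lower. In a model of all 12 libraries with that block, 2 rose and 2 fell, where 9.30% of all genes rose and 11.2% fell.

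Other genes of these pathways were counted from further lists. In these 3 comparisons 27.4% to 29.8% of all genes were called in each direction, and many of the lists' counts lie near those shares. Of 5 tested genes of sterol synthesis outside the 29, 4 rose and 1 fell in EB-resistant, 2 rose and 2 fell in VC-resistant, and 1 rose and 2 fell in DT-resistant cells. LBR, a nuclear envelope protein with the same sterol C14-reductase activity as TM7SF2, fell in all 3 lines (log2FC -0.50, -0.91 and -1.11 in EB-, VC- and DT-resistant cells). ACAT1, the mitochondrial acetoacetyl-CoA thiolase, rose in all 3 (0.46, 0.81 and 0.47). Of 12 genes that control the SREBP factors, 4 rose and 6 fell, 3 rose and 5 fell, and 2 rose and 6 fell in the EB-, VC- and DT-resistant lines (27.4% to 29.8% of all genes each way). PAQR3, a Golgi anchor of the SREBP complex, fell in each (-1.26, -0.76 and -0.50), as did ERLIN1 (-0.83, -0.36 and -0.56), an endoplasmic reticulum protein that restrains SREBP. MBTPS1, the site-1 protease that cleaves SREBP, rose in each (0.39, 0.22 and 0.59). RNF145, a sterol-sensing ubiquitin ligase, rose in EB-resistant (0.52) and VC-resistant cells (1.41) and was not called in DT-resistant cells (0.32).

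Of 13 tested genes of sterol uptake and transport, 3 rose and 7 fell in EB-resistant, 7 rose and 3 fell in VC-resistant, and 5 rose and 2 fell in DT-resistant cells (27.4% to 29.8% of all genes each way). GRAMD1B, which carries plasma membrane cholesterol to the endoplasmic reticulum, averaged 2.2 CPM in EB-resistant, 20.5 CPM in VC-resistant and 33.6 CPM in DT-resistant cells, against 42.3 CPM in sensitive cells. It fell in EB-resistant and VC-resistant cells (log2FC -4.27 and -1.04, adjusted p = 9.09e-11 and 3.6e-05, edgeR) and was not called in DT-resistant cells (-0.33, adjusted p = 0.0642). LIPA, the lysosomal acid lipase that frees cholesterol from its esters, rose in all 3 lines (0.35, 0.34 and 0.52). Of 7 tested genes of efflux and storage, 3 rose and 3 fell in EB-resistant cells, and 2 rose and 3 fell in each of the other lines. NR1H3, which encodes the oxysterol receptor LXR-alpha, rose in all 3 (1.75, 0.73 and 0.32). Its DT-resistant call was near the threshold (adjusted p = 0.0464, edgeR), and calls of these further lists are given with all 12 libraries only. SOAT1, which esterifies cholesterol for storage, fell in all 3 (-0.47, -0.43 and -0.49).

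Of 26 other tested genes of fatty acid synthesis, 12 rose and 9 fell in EB-resistant, 6 rose and 10 fell in VC-resistant, and 8 rose and 11 fell in DT-resistant cells (27.4% to 29.8% of all genes each way). ELOVL2, the elongase of long polyunsaturated chains, rose in all 3 lines, to 47.6, 64.1 and 47.5 CPM in EB-, VC- and DT-resistant cells, against 16.8 CPM in sensitive cells (log2FC 1.5, 1.93 and 1.5). ME1, the malic enzyme that supplies NADPH, rose in all 3 (1.89, 0.75 and 1.29), and ACSS2, which makes acetyl-CoA from acetate, fell in all 3 (-1.27, -0.70 and -1.67). SLC25A1, the mitochondrial citrate carrier, rose in EB-resistant cells (1.13) and was not called in VC-resistant (0.18) or DT-resistant cells (0.03). Of 11 genes of the isoprenoid branches, 2 rose and 4 fell in EB-resistant, 4 rose and 3 fell in VC-resistant, and 7 rose and 3 fell in DT-resistant cells (27.4% to 29.8% of all genes each way). GGPS1, geranylgeranyl diphosphate synthase, rose in each line (0.84, 0.43 and 0.61), as did FNTA, a subunit of protein farnesyltransferase (0.30, 0.60 and 0.71), while PDSS1, which makes the tail of coenzyme Q, fell in each (-0.59, -0.96 and -0.89).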

How the data were processed

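The deposited tables hold, for 12 libraries, gene-level read counts and the authors' normalised counts; each deposited normalised signal came out, to within 0.05, as a count over its library's median-of-ratios factor. Per the submitters' processing notes, bcl2fastq 2.20.0, STAR 2.7.10b, featureCounts 2.0.1 and DESeq2 1.38.3 were used on hg38. Libraries were strand-specific, per the labels' protocols; the strand setting of the counting is not given in the sources used here, so reads of the 15 members that overlap another gene may be shared.

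From the counts, genes were filtered with filterByExpr over the 4 groups, scaled by TMM and fitted with 1 mean per group in edgeR 4.0.16 (R 4.3.3, limma 3.58.1; quasi-likelihood, robust, 8 residual degrees of freedom), with Benjamini-Hochberg adjustment over 17114 genes at 0.05. Standard errors were taken from the log2FC and the F statistic. The test was checked on simulated data. Ratios of group means from normalised counts and from CPM differed by at most 0.013 (log2). DESeq2 1.42.0, other scaling, no filter, 2-group fits, limma on log2(normalised count + 1), a replicate block and leaving out each library were tried.

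The members, lists and naming rule were chosen with earlier results of these data known. Named with statistics are the 3 smallest adjusted p per direction and arm; values per library are given for the 4 largest changes per direction and for SREBF1, SREBF2 and INSIG1, and STARD4 and other members beyond this rule were added after their values were seen. From each further list up to 2 genes per direction were named. Some genes within these rules are not reported here. Deviations from group means correlated at 0.337, 0.151 and 0.195 between same-numbered VC-resistant and DT-resistant libraries, so the data pair these; the other 5 pairs of groups did not pass 0.1 throughout. Promoter windows are RefSeq's, GRCh38.p14. Figures used matplotlib 3.10.9, pandas 2.3.3 and numpy 2.4.6 in Python 3.11.15.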

Additional observations from a re-analysis of the deposited data

Results flagged for a closer look

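For 7 members the EB-resistant and VC-resistant lines were called in opposite directions against the same sensitive libraries. These were up in EB-resistant and down in VC-resistant cells. The share of all genes called in opposite directions was not counted. Singly, 28.5% of all genes rose in EB-resistant cells, and 27.4% fell in VC-resistant and 29.3% in DT-resistant cells. The difference between the lines was called too by edgeR's quasi-likelihood test, but from the same libraries, so it is not separate support. That difference, EB-resistant minus VC-resistant on the log2 scale, was 3.88 for FADS2, 1.98 for SREBF1, 1.66 for LSS, 1.41 for HMGCS1, 1.03 for FADS1, 0.84 for ACAT2 and 0.57 for PMVK. For 6 members the same held between the EB-resistant and DT-resistant lines, where EB-resistant minus DT-resistant was 4.16 for FADS2, 1.73 for SREBF1, 1.53 for LSS, 1.37 for FADS1, 0.93 for ACAT2 and 0.68 for PMVK. The 2 sets share both the sensitive and the EB-resistant libraries. The EB-resistant calls of SREBF1 and FADS1 and the VC-resistant calls of HMGCS1, ACAT2 and PMVK were each lost without at least 1 library, while the differences between the lines were kept without any 1 of the 12.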

How the results depend on the processing

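Of 86 member values called over the 6 comparisons, 70 kept their call without any 1 library and 16 lost it at least once; none changed direction in any of the 20 alternatives. Scaling by RLE kept 84, no filter 79, DESeq2 85, fits of 2 groups only 81, limma on normalised counts 85, and the replicate block on 12 libraries 86. Leaving out replicate 2 in all groups and blocking within 2 groups were chosen after seeing the data, and kept 85 and 83. Leaving out 1 library at a time, members that fell numbered 1 to 2 in EB-resistant and 6 to 15 in VC-resistant cells. For VC-resistant against DT-resistant cells they numbered 0 to 1, and members that rose in DT-resistant cells numbered 1 to 4. With all 12 libraries 27.6%, 27.4% and 8.71% of all genes fell in those comparisons, and 29.8% rose in DT-resistant cells. The shares without 1 library are not given here. In these fits the EB-resistant over VC-resistant median was 0.50 to 0.83. Without replicate 2, 5 members fell in EB-resistant cells, where 28.8% of all genes fell, and that median was 0.76. In VC-resistant against DT-resistant cells 2 members fell then, where 11.7% of all genes fell. With the replicate block, 4 members rose in DT-resistant cells, where 31.0% of all genes rose. In VC-resistant against DT-resistant cells 2 members fell with it, where 11.2% of all genes fell. In the 2-group block 5 rose and 3 fell there, where 13.4% and 14.8% of all genes did. With RLE, no filter or 2 groups only, 0 fell there by edgeR, 1 at an unadjusted p under 0.05 in each; DESeq2 and limma each called 1, SC5D, whose adjusted p ran from 0.000198 to 0.211 over all alternatives. The causes were not tested. Replicate numbers pair other groups by number only, and the block changed no other member count by over 1.5 times. With 3 libraries a group, members with a wide spread between experiments, such as STARD4, limit what could be called.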
